A study of Mus musculus with 2 samples.

Results

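Amino acid transporters of 7 solute carrier families (SLC1, SLC3, SLC6, SLC7, SLC36, SLC38 and SLC43) were examined in mouse macrophages after CSF1, the growth factor that sustains macrophage survival and proliferation through its receptor Csf1r. The genes were chosen by symbol, as all genes of these families with a probe set assigned to exactly 1 gene, leaving out the cationic carriers Slc7a1 and Slc7a2. This gave 61 of the 18194 genes on the array, with 118 probe sets. Of the 61, 58 encode carriers or their heavy chains. The other 3, Slc7a6os, Slc36a1os and Slc6a19os, carry the name of a carrier only because they are its opposite-strand neighbour.

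The study compared 1 CSF1 array with 1 control array, both Affymetrix Mouse Genome 430 2.0. The CSF1 sample was peritoneal macrophages of 8-week-old male C57BL6 wild-type mice, kept for 12 h with 100 ng/ml CSF1. The control sample was the same kind of cells kept without CSF1. In both samples the cells had been drawn into the peritoneal cavity with thioglycolate, an irritant medium, recovered by lavage 1 week later and cultured to 80% confluence in medium with serum. The labels do not say whether animals were pooled or whether the samples shared animals. Because each group had 1 array, no test between them was possible and no difference has a replicate check; precision is limited by the number of arrays. For a member with several probe sets above background on both arrays, their SD is given as the error, which says nothing of the spread between cultures or animals.

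Amino acids need carriers to cross membranes. Some carriers of these families exchange an amino acid inside the cell for one outside, some use the sodium or proton gradient to accumulate their substrate, and some sit on the lysosome and release the products of protein breakdown. In macrophages they feed protein synthesis and growth, supply cysteine for glutathione, and report the amino acid supply to the growth regulator mTORC1. Several SLC6 members carry neurotransmitters, taurine or creatine instead of protein amino acids.

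The arrays had median signals of 91.6 units (CSF1) and 101.5 units (control), over 45101 probe sets. A background level of 140.9 units was taken from genes of unrelated tissues, and values below it were raised to it. Genes above it on either array were taken as measured. The value of a gene is its log2 ratio, CSF1 over control, on the probe set of highest mean signal. Over all 10997 measured genes the median log2 ratio was 0.00. The hybridisation spikes, which are added in equal amounts, stood at -0.29 ± 0.13 (SD between 18 probe sets). Centred on these spikes, the median of measured genes moves to 0.28, so the ratios given here are relative to the typical gene of these arrays. The 3' to 5' signal of Gapdh, a sign of RNA integrity, was 1.40 on the CSF1 array and 1.03 on the control array, and that of Actb was 1.38 and 1.35.

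Of the 61 genes, 27 were measured (44.3%, beside 60.4% of all genes), 23 of them above background on both arrays. The families differed in how many members were measured. In SLC38, the sodium-coupled glutamine and neutral amino acid carriers, 7 of 9 were measured, and in the proton-coupled SLC36 family 3 of 4. SLC7 had 5 of 13, SLC43 2 of 3, SLC1 2 of 7 and SLC3 1 of 2. In SLC6, whose members include the transporters of GABA, dopamine, serotonin and glycine at synapses, 6 of 20 were measured. Slc6a19, at 164 units on the CSF1 array, was the member just inside the background level, and Slc6a18, at 137 units on the CSF1 array, the one just outside it. Slc7a5, the light chain that imports leucine and other large amino acids, was also just outside, with 132 units on the CSF1 array and 116 units on the control array. It is singled out here because of its role, after its values were seen.

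**Figure D1:**
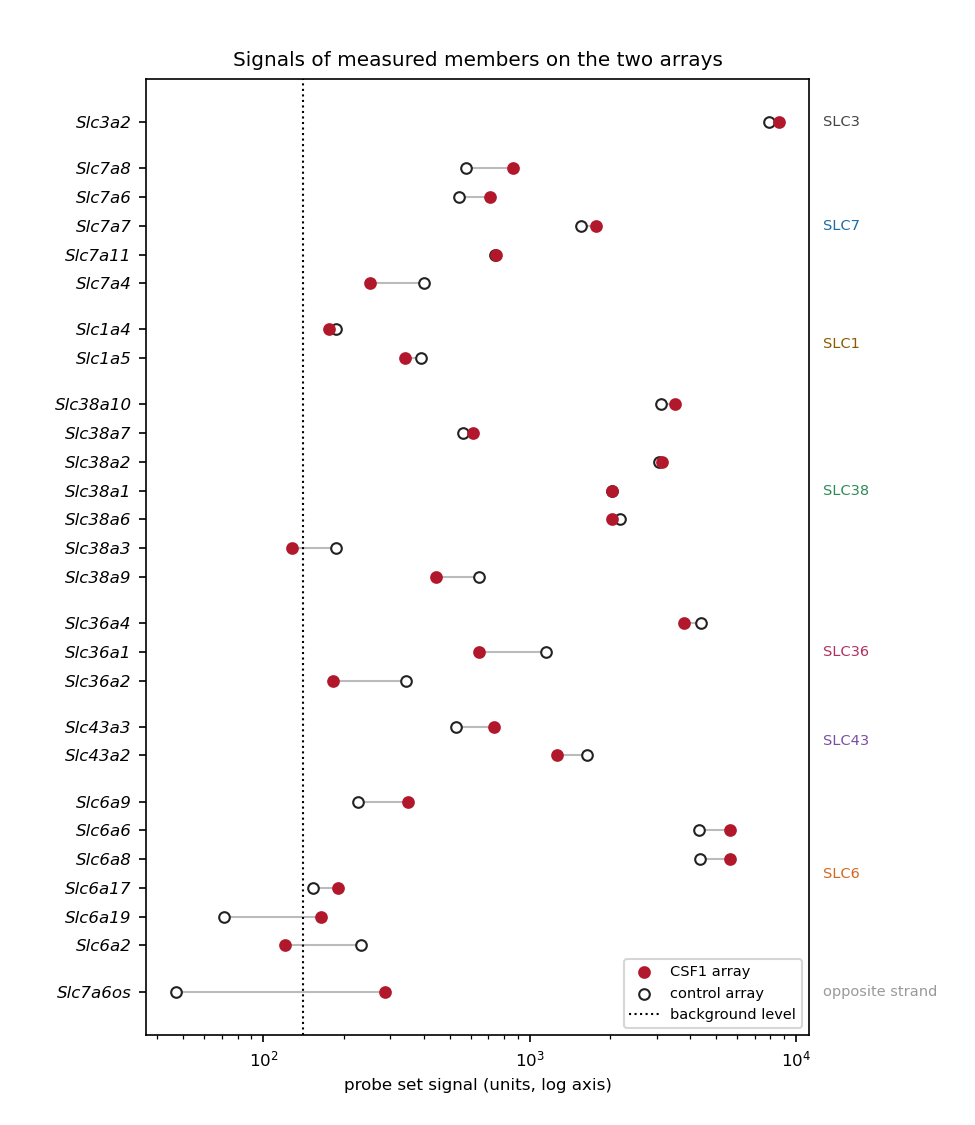
Signal of each measured gene (units, log axis) on the CSF1 array (filled) and the control array (open), grouped by family, with the background level of 140.9 units dotted. The pairs of Slc7a11, Slc38a1 and Slc38a2 nearly coincide, those of Slc36a1, Slc36a2 and Slc7a8 are apart, and Slc7a6os, Slc6a19, Slc6a2 and Slc38a3 have 1 array below the background level.

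No carrier above background on both arrays differed by 2-fold on its brightest probe set, and for the 3 carriers at background on 1 array (Slc6a2, Slc6a19 and Slc38a3) the fold has only a lower bound, in each case under 2-fold. Among the 27 measured genes, 1 was higher by 2-fold or more on the CSF1 array, as were 0.937% of all measured genes, and 0 were lower by 2-fold or more, as were 0.709%. The 1 gene was Slc7a6os, which is not a carrier. At 1.5-fold, 3 genes were higher (Slc7a6os, Slc6a9 and Slc7a8), beside 5.87% of all measured genes, and 4 were lower (Slc36a2, Slc36a1, Slc6a2 and Slc7a4), beside 5.36%. These are 11.1% and 14.8% of the 27, shares that rest on very few genes. Slc7a8 lies on the 1.5-fold line and falls under it when ratios are centred on the median of measured genes, and Slc6a2 falls under it with a stricter background level of 182.5 units. The median over the 27 was 0.03, and 16 were above 0 (59.3%, beside 50.2% of all measured genes). The interquartile range ran from -0.30 to 0.34, against -0.21 to 0.22 for all measured genes. The opposite-strand genes left out, the median was 0.02.

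Larger ratios were found mostly in dim genes. None of the 10 members with a mean signal of 1000 units or more was past 1.5-fold, and 3 of the 9 members between 300 and 1000 units were, as were 2 of the 4 between 140.9 and 300 units. The same held for all genes above background on both arrays, of which 4.37% were past 1.5-fold at 1000 units or more, 12.0% between 300 and 1000 units, and 18.3% below. Their log2 ratios had an SD of 0.28, 0.39 and 0.45 in these ranges, so a given ratio weighs less in a dim gene.

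**Figure D2:**
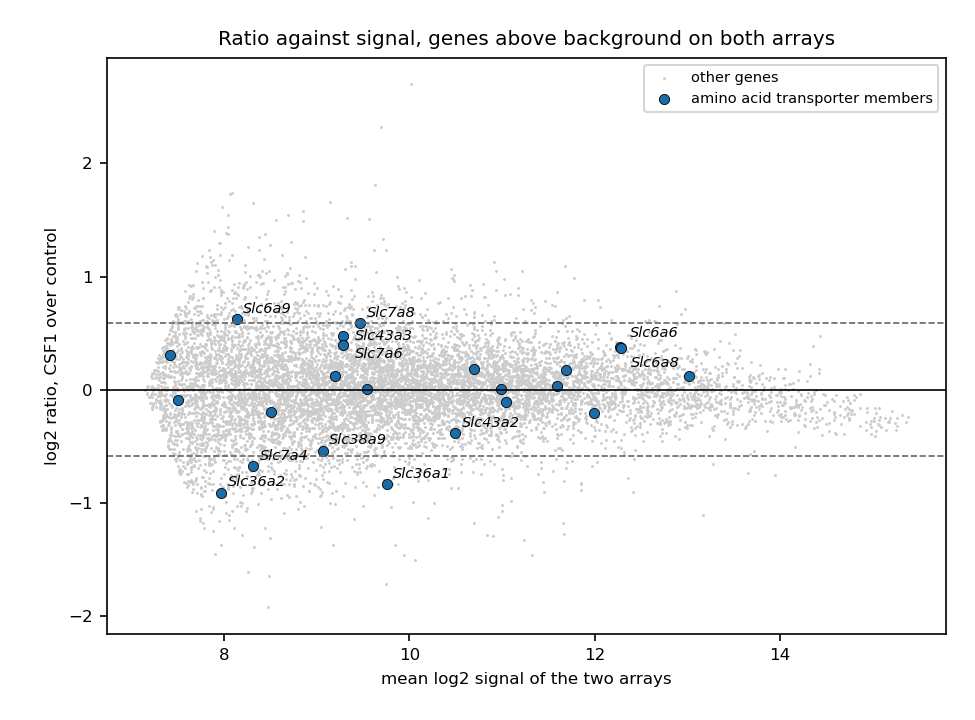
Log2 ratio of CSF1 over control against the mean log2 signal of both arrays for the 9601 genes above background on both, with the 23 amino acid transporter genes among them in blue and dashed lines at 1.5-fold. The scatter of all genes narrows as the signal increases, and the blue points past the dashed lines lie in its left part.

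The CD98 complex joins a heavy chain, Slc3a2, to one of several SLC7 light chains that do the transport. The heavy chain Slc3a2 had 8646 units on the CSF1 array and 7952.5 units on the control array, a log2 ratio of 0.12. Its light chains were level or higher on their brightest probe sets, although Slc7a11 stood at -0.54 when its probe sets were averaged. Slc7a8, which exchanges small and large neutral amino acids, had 868 units on the CSF1 array, against 578 units on the control array, and was 1.50-fold higher. This ratio exceeded that of 94.2% of all measured genes, and it comes from the gene's only probe set. Slc7a6, which exchanges arginine or lysine for glutamine and other neutral amino acids, had 711 units with CSF1 and 542 units without, a log2 ratio of 0.39. Its second probe set pointed the other way by the same amount, with 384 units on the CSF1 array and 503 units on the control array, so the mean over both was 0.00 ± 0.55 (SD between 2 probe sets). No direction can be given for Slc7a6. Slc7a7, a carrier of the same exchange whose loss in humans causes lysinuric protein intolerance, a disease that involves macrophages, had 1770 units on the CSF1 array and 1561 units on the control array. Its mean over both probe sets was 0.03 ± 0.21 (SD between 2 probe sets). Slc7a4, a relative of the cationic carriers with no established transport activity, was the lower exception, with 252 units on the CSF1 array and 403 units on the control array, 1.60-fold lower. It does not belong to the CD98 light chains. Its other probe sets were below background on both arrays, and with all probe sets averaged Slc7a4 was not measured.

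Slc7a11 is the light chain of the cystine importer xC-, which takes up cystine in exchange for glutamate and so supplies cysteine for glutathione. Its probe sets disagreed more than those of any other member. On the brighter one it had 746 units on the CSF1 array and 744 units on the control array, with no difference. On the other it had 296 units with CSF1 and 624 units without, a log2 ratio of -1.08, and the mean over both was -0.54 ± 0.76 (SD between 2 probe sets). Which parts of the transcript the probe sets match was not examined here, and the level of Slc7a11 is unresolved. The enzymes that use the imported cysteine, named here after their values were seen, were level or slightly higher. The subunits of the first enzyme of glutathione synthesis had mean log2 ratios of 0.13 ± 0.11 (Gclc) and 0.12 ± 0.27 (Gclm). Glutathione synthetase, Gss, averaged 0.27 ± 0.10 (mean and SD over 2 probe sets each). On their brightest probe sets Gclc was at 0.05, Gclm at 0.32 and Gss at 0.34.

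Slc7a11 is a textbook target of ATF4, the transcription factor of the amino acid response. Its promoter is shown because it holds the element of that response in a pair. The 250 bases before the annotated start (RefSeq, GRCm38.p6, chr3:50443614-50443863, minus strand) are printed 5′ to 3′, with matches to TGATGNAA on either strand in capitals.
Slc7a11 promoter: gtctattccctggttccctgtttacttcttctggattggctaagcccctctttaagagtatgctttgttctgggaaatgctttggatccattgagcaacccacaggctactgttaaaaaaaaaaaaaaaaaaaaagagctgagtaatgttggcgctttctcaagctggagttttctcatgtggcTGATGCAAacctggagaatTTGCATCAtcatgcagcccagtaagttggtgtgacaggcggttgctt
The matches begin 66 bases before the start, on the gene's strand, and 47 bases before it, on the opposite strand. TGATGNAA occurs within such a window in 3.45% of 32851 RefSeq promoters, or 3.91% of 27025 genes. Among the 18 measured members with a promoter entry, it was present in Slc7a11 and Slc7a7. A match describes the letters and shows no binding.

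Other genes of the ATF4 response went both ways, with more of them higher than lower past 1.5-fold. Of 25 measured genes on this list, 14 were above 0 and 11 below, with a median of 0.11, and 6 were at least 1.5-fold higher and 1 lower, where 5.87% and 5.36% of all measured genes were. The serine synthesis enzyme Phgdh had 1002 units on the CSF1 array and 564 units on the control array, 1.78-fold higher. Over 4 probe sets it averaged 0.53 ± 0.22 on the log2 scale. Aldh18a1, which starts proline synthesis from glutamate, was 1.73-fold higher on its brightest probe set and at 0.60 ± 0.31 over 3. The secreted glycoprotein gene Stc2 was at least 1.65-fold higher, since its control signal lay under background. Ddit4, a stress-induced inhibitor of mTORC1, was under background after CSF1 and at least 1.76-fold lower. Atf4 itself was at 0.03 ± 0.11 over 2 probe sets and the kinase Eif2ak4 (GCN2), which senses uncharged tRNA, at 0.01. Asparagine synthetase, Asns, was 1.52-fold higher, with 0.68 ± 0.10 over 2 probe sets, while Trib3, another ATF4 target, was at -0.41 ± 0.03 over 2. Psat1 was 1.58-fold higher, with 0.71 ± 0.06 over 2 probe sets, and Ddit3 was 1.54-fold higher on its only probe set above background. Atf4, Eif2ak4, Asns, Trib3, Psat1 and Ddit3 are named after their values were seen.

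Carriers of glutamine and other small neutral amino acids at the cell surface were level on their brightest probe sets, but the probe sets of Slc38a1 and Slc38a2 disagreed. Slc1a5, the sodium-dependent exchanger ASCT2 that imports glutamine, had 341 units on the CSF1 array and 390 units on the control array, a log2 ratio of -0.19. Its relative Slc1a4, which carries alanine, serine and cysteine, had 176 units with CSF1 and 187 units without, or -0.09, on a probe set that may match further transcripts, by its name. The 5 other SLC1 genes, which include the glutamate transporters of brain and retina, were below background on both arrays. Slc38a1 and Slc38a2 concentrate glutamine and alanine with sodium. Slc38a2 had 3129 units on the CSF1 array and 3059 units on the control array, and averaged 0.11 ± 0.47 on the log2 scale over 3 probe sets. Slc38a1 had 2041 units with CSF1 and 2034 units without on its brightest probe set, which may match further transcripts, and 609 units with CSF1 and 393 units without on the other, which was at 0.63. Its mean over both was 0.32 ± 0.44 (SD between 2 probe sets). The 2 genes are neighbours in the genome. The ratio of Slc38a1 is therefore near 0 or near 1.5-fold depending on the probe set.

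Slc38a10 and Slc38a6, which are less well characterised, were level. Slc38a10 had 3507 units on the CSF1 array and 3111 units on the control array, and over 6 probe sets its mean log2 ratio was 0.00 ± 0.28 (SD between probe sets). Slc38a6 had 2033 units with CSF1 and 2189 units without, a log2 ratio of -0.11. Slc38a3, the system N glutamine transporter of liver and kidney, was below background on the CSF1 array at 128 units, against 187 units on the control array, and so at least 1.33-fold lower. Its control value is close to the stricter background level of 182.5 units, and under that level the bound nearly vanishes, at -0.04.

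The proton-coupled SLC36 family had the lowest median of the families, -0.83, over 3 measured genes. Slc36a1 and Slc36a2 move glycine, alanine and proline together with protons, and Slc36a1 exports these amino acids from the lysosome. Slc36a1 had 646 units on the CSF1 array and 1152 units on the control array, 1.78-fold lower. Only 1.58% of all measured genes had a lower ratio. Slc36a2, which carries the same amino acids and is best known from kidney, had 183 units on the CSF1 array and 344 units on the control array, 1.88-fold lower. Its CSF1 value lies just above the stricter background level. Slc36a4, a carrier of proline and tryptophan, had 3793 units with CSF1 and 4390 units without, a log2 ratio of -0.21. All 3 measured members were below the median of all genes under each of the 10 processing alternatives, although on the spike-centred scale itself Slc36a4 was above 0, at 0.08. Relative to that median Slc36a1 lay between -0.86 and -0.82, Slc36a2 between -0.92 and -0.88, and Slc36a4 between -0.25 and -0.20. Each has a single probe set, so their ratios have no SD. Alternatives that average or choose probe sets could not change them, and taking ratios relative to the median cancels the median and spike centring. The narrow ranges therefore say little about how well these ratios hold. Slc36a1 and Slc36a2 are neighbours in the genome, and Slc36a3, on the other side of Slc36a2, was not above background, with 130 units on the CSF1 array and 33.7 units on the control array. In the 3 alternatives that gave Slc36a3 a value, the family's median relative to all genes was between -0.53 and -0.51, and in 2 of them Slc36a3 stood above the median of all genes.

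**Figure D3:**
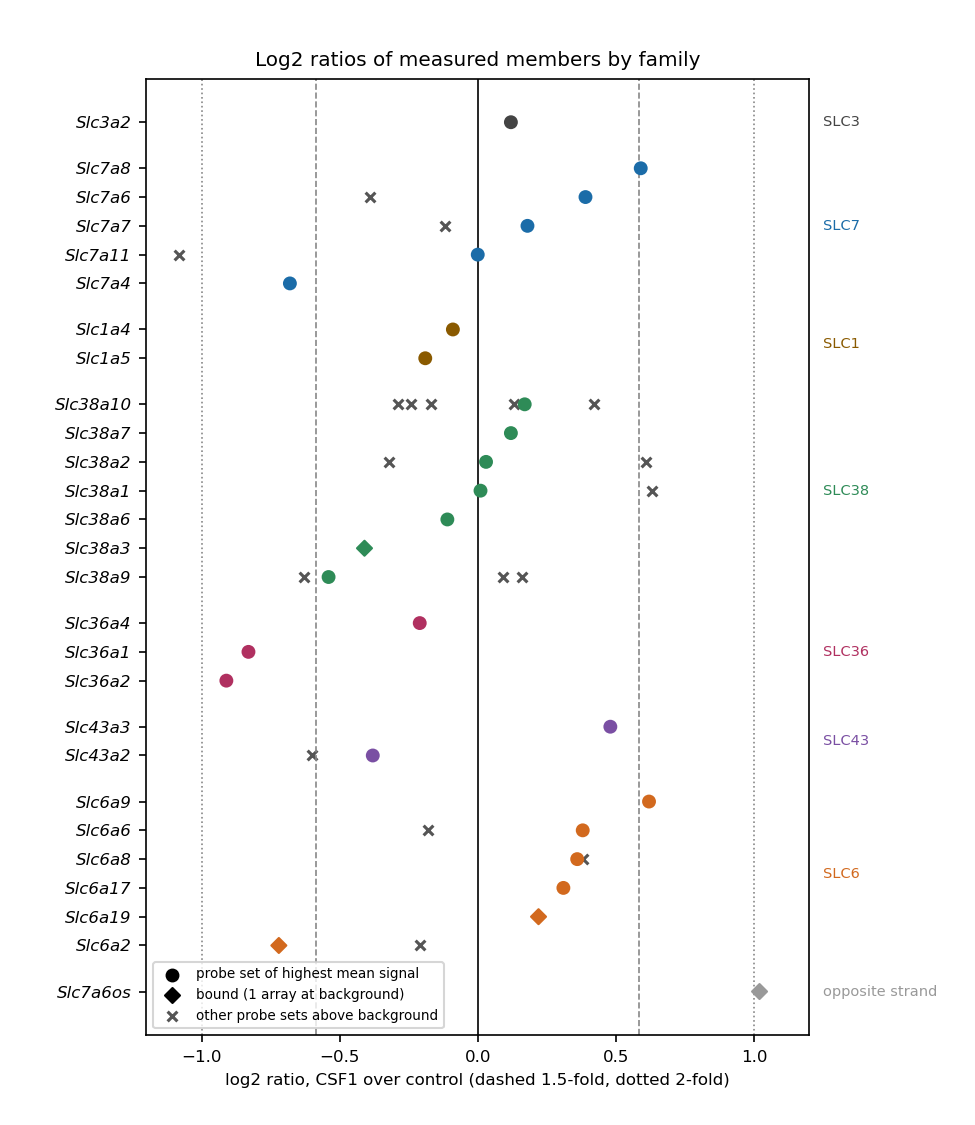
Log2 ratio of CSF1 over control for each measured gene by family, with circles for the probe set of highest mean signal, diamonds for bounds where 1 array was at background, crosses for other probe sets (above background on each array), and lines at 1.5-fold and 2-fold. All 3 SLC36 genes lie left of 0, and the crosses of Slc7a11, Slc7a6, Slc38a1 and Slc38a2 lie far from their circles.

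Lysosomal carriers are also found in SLC38. Slc38a9, which senses lysosomal arginine and passes it to mTORC1, had 443 units on the CSF1 array and 645 units on the control array, 1.45-fold lower. Another probe set was at -0.63, but 2 more were at 0.09 and 0.16, and the mean was -0.23 ± 0.41 (SD between 4 probe sets). A further probe set was below background on the CSF1 array at 126 units, against 235 units on the control array, and one more was at 152 units with CSF1 and below background at 131 units without. Slc38a7, which releases glutamine and asparagine from the lysosome, had 611 units with CSF1 and 563 units without, a log2 ratio of 0.12. Lysosomal carriers of other families, named after their values were seen, were near 0. The cystine exporter Ctns was at 0.05, the cationic amino acid exporter Slc66a1 at 0.18, the sialic acid exporter Slc17a5 at -0.20, and the histidine and peptide carriers Slc15a3 and Slc15a4 at -0.08 and 0.02.

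The promoters of Slc36a1 and Slc38a7 are shown because both hold the same E-box letters at nearly the same place. The E-box CACGTG, a palindrome that reads alike on both strands, is the core bound by MiT/TFE factors, the regulators of lysosomal genes, and by Myc. Below are the 250 bases before each start (RefSeq, GRCm38.p6), for Slc36a1 at chr11:55204090-55204339, plus strand, and for Slc38a7 at chr8:95853492-95853741, minus strand, each 5′ to 3′ on the gene's strand with CACGTG in capitals.
Slc36a1 promoter: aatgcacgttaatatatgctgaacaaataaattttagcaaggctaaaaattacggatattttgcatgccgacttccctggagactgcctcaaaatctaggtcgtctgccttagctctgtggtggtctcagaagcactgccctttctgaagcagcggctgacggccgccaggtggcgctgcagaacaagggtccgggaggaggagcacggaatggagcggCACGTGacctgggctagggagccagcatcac
Slc38a7 promoter: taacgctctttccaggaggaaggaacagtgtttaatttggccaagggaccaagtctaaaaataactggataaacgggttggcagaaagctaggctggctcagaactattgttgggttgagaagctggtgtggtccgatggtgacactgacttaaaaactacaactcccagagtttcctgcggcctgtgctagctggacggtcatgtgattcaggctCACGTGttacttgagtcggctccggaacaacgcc
The match begins 31 bases before the start of Slc36a1 and 34 bases before that of Slc38a7. CACGTG occurs in 6.02% of the 32851 promoters over this length, or 6.86% of genes, and in 2 of the 18 measured members with an entry, which are these 2. Here too a match shows no binding. Any part of this element in the ratios of the 2 genes was not tested.

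The mTORC1 machinery on the lysosome that reads these amino acids was level as a group. All 31 genes of this list on the array were measured, with 16 above 0, 15 below and a median of 0.04, and 2 were at least 1.5-fold higher and 3 lower (5.87% and 5.36% over all measured genes). Wdr59, a subunit of the GATOR2 complex, had 182.5 units on the CSF1 array and 342 units on the control array, 1.87-fold lower. Tsc1 and Tsc2, which together restrain mTORC1, went opposite ways, Tsc1 1.66-fold lower and Tsc2 1.52-fold higher. Tsc2 is named after its values were seen. The mTORC1 inhibitor Deptor was 1.65-fold lower, with -0.76 ± 0.24 over 4 probe sets. The arginine sensor Castor1 was 1.52-fold higher.

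Members of SLC6 above background on both arrays (4 of 4) were higher on the CSF1 array on their brightest probe set, but Slc6a6 was lower when all its probe sets were averaged. Of all measured genes 50.2% were above 0, so a count over so few genes gives no family trend. Slc6a2, which was above background on the control array alone, was lower. Slc6a9, the glycine transporter GlyT1, had 350 units with CSF1 and 227 units without, 1.54-fold higher. Its second probe set, which may match further transcripts, had 226 units on the CSF1 array and was below background on the control array at 114 units, which points the same way. Slc6a8 imports creatine, the cell's store of high-energy phosphate. It had 5641 units on the CSF1 array and 4381 units on the control array, 1.29-fold higher, and its probe sets agree closely, at 0.37 ± 0.01 (SD between 2 probe sets). Slc6a6, the taurine transporter, had 5633 units with CSF1 and 4343 units without, 1.30-fold higher, but its other bright probe set was at -0.18, and the mean over both was 0.10 ± 0.39. With all 4 probe sets averaged, those below background included, Slc6a6 was at -0.13. Slc6a17, a vesicular carrier of neutral amino acids in neurons, had 190 units on the CSF1 array and 154 units on the control array, with the control value under the stricter background level.

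Both remaining SLC6 members were near background and went apart. Slc6a19, the neutral amino acid importer of intestine and kidney, was at 164 units on the CSF1 array and below background at 71.3 units on the control array, at least 1.17-fold higher. With the stricter background level of 182.5 units Slc6a19 was not measured. Slc6a2, the noradrenaline transporter, was below background at 121 units on the CSF1 array, against 232 units on the control array, at least 1.64-fold lower. Its other measured probe set was at -0.21, and with the stricter background level the bound was -0.34, which is under 1.5-fold. Of 9 neuron markers, 8 were below background on both arrays, among them Snap25, Syt1 and Nefl, and Syp was above it on the control array alone, at 180 units.

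The SLC43 family carries substrates down their gradient. Slc43a2, which lets large neutral amino acids such as leucine and phenylalanine pass, had 1264 units on the CSF1 array and 1647 units on the control array, 1.30-fold lower, with both probe sets lower at -0.49 ± 0.15 (SD between 2 probe sets). Slc43a3, a carrier of purine nucleobases despite its family name, had 732 units with CSF1 and 527 units without, 1.39-fold higher. Slc43a1 was below background. Among carriers of large neutral amino acids, Slc7a8 was thus higher, on its only probe set, and Slc43a2 lower. Slc7a5 was below background on both arrays. Slc7a7 and Slc7a6, which also exchange neutral amino acids, averaged 0.03 ± 0.21 and 0.00 ± 0.55 over their probe sets. With 1 array per group, these few genes give no direction for such carriers.

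Slc7a6os, which lies beside Slc7a6 in the RefSeq gene table, had the highest ratio of the 27 measured genes and is no transporter. It had 285 units on the CSF1 array and 47.1 units, below background, on the control array, and was at least 2.02-fold higher. Its other probe set was below background on both arrays. With the stricter background level the bound was 0.64 on the log2 scale, and with all probe sets averaged it was 0.21, so the ratio rests on 1 dim probe set.

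**Figure D4:**
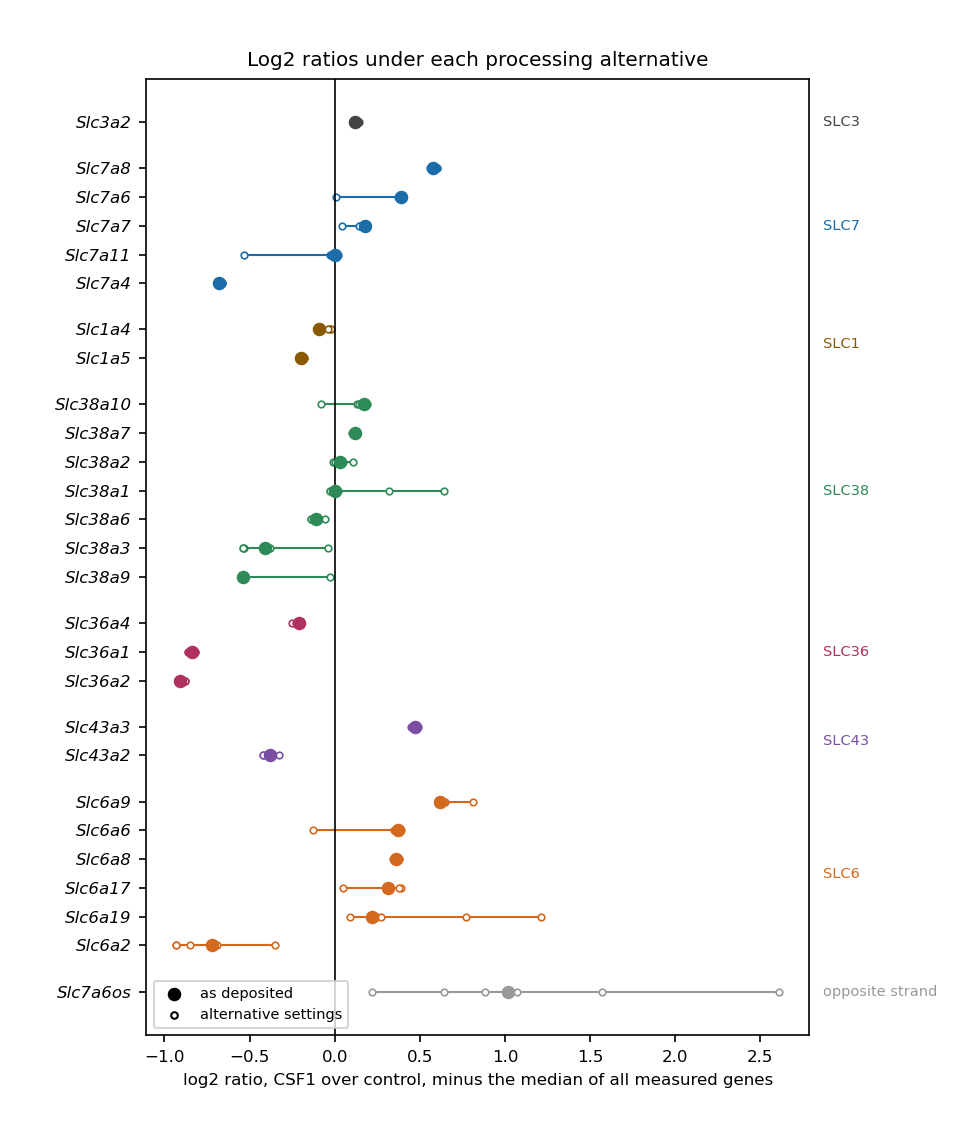
Log2 ratio of CSF1 over control, minus the median of the measured genes, for each measured gene as deposited (large point) and under the processing alternatives in which it was measured (small points), by family. Slc36a1, Slc36a2, Slc7a4, Slc7a8 and Slc6a8 hardly move. Slc7a11, Slc38a1, Slc38a3, Slc38a9, Slc6a2, Slc6a6, Slc6a19 and Slc7a6os spread widely. Slc36a1, Slc36a2 and Slc7a8 have a single probe set, so the choice or averaging of probe sets cannot move them. Slc7a4 was not measured with all probe sets averaged.

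Amino acid carriers of other families were level as a group. Of 16 measured, 10 were above 0 and 6 below, with a median of 0.04, where 50.2% of all measured genes were above 0. Past 1.5-fold in either direction were 11.2% of all measured genes and 1 of these carriers. It was Slc25a13, the mitochondrial aspartate and glutamate exchanger, with 730 units on the CSF1 array and 481 units on the control array, 1.52-fold higher. Next came the mitochondrial carriers Slc25a40, at 0.34, Slc25a38, which brings glycine into mitochondria for heme synthesis, at 0.33, and Slc25a44, which imports branched-chain amino acids, at 0.32, or 0.25 ± 0.11 over 2 probe sets. Enzymes of glutamine, cysteine and branched-chain amino acid use had a median of 0.05 over 18 measured genes, with 10 above 0. Bcat2, the mitochondrial transaminase of branched-chain amino acids, had 419 units on the CSF1 array and 217 units on the control array, 1.94-fold higher. The glutathione-degrading enzyme Chac2 was 1.42-fold higher. The enzymes that make taurine from cysteine went apart, Csad at least 1.40-fold higher and Cdo1 1.33-fold lower.

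Markers of the cells in the culture also differed. Macrophage markers were measured in 11 of 12 cases, among them Adgre1, Cd68 and Lyz2, with Cd163 below background. Of the 11, 2 were above 0 and 9 below, where 50.2% of all measured genes were above 0. Their median was -0.21, and Mertk at -0.75 and Cd68 at -0.41 were lowest. The macrophage list had summed signals of 149682 units (CSF1) and 176822 units (control), to which the brightest genes contribute most. On their brightest probe sets all 9 measured fibroblast and mesothelial markers were above 0, with a median of 0.30. Their list had sums of 65625 units (CSF1) and 51721 units (control), while Msln, Krt19 and Lrrn4 were below background. Averaged over 2 probe sets each, Col1a1 was at -0.06 ± 0.26 and Pdgfra at -0.13 ± 0.63. Col1a2 and Col3a1 stayed above 0, at 0.20 ± 0.03 and 0.58 ± 0.27. The value of Upk3b is a bound, since its control signal lay under background. Among T and NK cell markers, 7 of 9 were below 0, with sums of 4083 units (CSF1) and 8436 units (control), led by Gzma at -1.72 and Gzmb at -1.47. Zap70 was at -1.61 on its brightest probe set and at -0.81 ± 1.14 over 2, and Prf1 was at -0.81. The T cell surface genes Cd3d, Cd3g, Cd2 and Cd5 were at 0.35, -0.04, -0.04 and 0.04, and Cd3e and Ncr1 were below background. Measured were 4 of 7 B cell markers, 6 of 11 mast cell and eosinophil markers and 3 of 5 platelet markers, with medians of -0.06, -0.21 and -0.13. Of 9 neutrophil markers, 2 were measured and went opposite ways, S100a8 at 0.18 and Prtn3 at -1.47 or lower, with sums over the list of 5984 units (CSF1) and 5602 units (control). Fewer cells of a type and less RNA per cell cannot be told apart in such samples. The part of these differences in the ratios of the carriers was not tested.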

How the data were processed

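The deposited table gives 1 linear intensity per probe set and array, which the authors analysed with GeneSpring 6.2 per the series' design text. How probes were summarised is not stated in the labels. After trimming 2% from each end, both arrays had a mean of 500.0 units. Groups were taken from the labels. No further scaling was applied before log2. Gene names came from the platform annotation, in which 34958 probe sets had 1 symbol, 932 several and 9211 none. All 61 symbols matched a RefSeq gene table by Entrez ID. For the background level, 94 genes typical of other tissues were listed; 85 were on the array, with 125 probe sets, and the 90th percentile of their values was used.

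Every member above background on at least 1 array was named, and of each other list up to 4 genes with the largest absolute ratio. Exceptions are marked in the text, apart from the cell type markers. The markers named do not all follow this rule and were named with their values known. Members and lists were chosen with earlier results of these data known. The pooled SD between probe sets was 0.29 over 3785 genes. The procedure was tested on simulated data, in which only genes far above background were changed, by more than 2-fold. Only 2-fold calls and the median ratio were checked, so the simulation says nothing of 1.5-fold calls or of genes near background. Alternatives were quantile normalization, median, loess (span 0.3) and spike centring, 3 other background settings, the mean of probe sets, unshared probe sets, and genes above background on both arrays. Leaving out the opposite-strand genes was added after seeing the data. Python 3.11.15, numpy 2.4.6, pandas 2.3.3, statsmodels 0.14.6 and matplotlib 3.10.9 were used.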

Additional observations from a re-analysis of the deposited data

How the results depend on the processing

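Of 27 measured members, 22 kept the sign of their ratio, relative to the median of all genes, under each of the 10 alternatives that gave them a value. The exceptions were Slc38a1, Slc38a2, Slc38a10, Slc6a6 and Slc7a11, each with several probe sets. For a member with a single probe set, the alternatives that choose or average probe sets could not change the ratio. The count of members at least 2-fold higher, 1 as deposited, was 0 with the background at the 95th percentile, with the mean of all probe sets, with only genes above background on both arrays, and without opposite-strand genes. Centring on the hybridisation spikes gave 7 members at least 1.5-fold higher and 1 lower, and a median of 0.30, because it moves the median of all measured genes to 0.28. Centring on the median of measured genes left 2 at least 1.5-fold higher, without Slc7a8, and the stricter background level left 3 at least 1.5-fold lower, without Slc6a2. Without a background level, all 61 genes had a value, and 14 were at least 2-fold higher and 3 lower, and 17 at least 1.5-fold higher and 12 lower; most of these values lie below background. With the mean of all probe sets, 2 members were at least 1.5-fold lower, among 20 measured. Signal over background limits the 4 members given as bounds. No paired analysis was possible because each group had 1 array, and leaving out an array leaves no comparison.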
